A study of Homo sapiens with 89 samples.

Results

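The genes described here are 45 named genes of the G1/S transition and of DNA replication, listed by symbol, without a threshold on measured values, when earlier results of these data were known. Of these, 44 were matched among the 57905 gene rows of each count table, and UHRF1, which couples DNA methylation to replication, was not matched. Polyadenylated RNA was sequenced in 5 groups of 3 libraries from 2 human neuroblastoma cell lines, 15 of the 89 samples of the series. IMR-32 cells, an adrenergic line with amplified MYCN, carried a doxycycline-inducible shRNA against EXOSC10, a nuclease subunit of the nuclear RNA exosome. The IMR-32 control libraries had no doxycycline and the shEXOSC10 libraries had 1 µg/ml. SHEP cells, a mesenchymal line without MYCN amplification, carried doxycycline-inducible MYCN, a transcription factor of the MYC family. The SHEP groups were labelled no MYCN (no doxycycline), MYCN WT (wild type, 1 µg/ml) and MYCN 3A (a triple mutant that the labels call deficient in RNA binding, 1 µg/ml). Doxycycline and the induced shRNA or MYCN form cannot be told apart in comparisons with the untreated groups, whereas MYCN WT and MYCN 3A both had it. The labels do not say whether replicates came from separate cultures or clones, so each p-value measures the spread between these libraries.

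Entry into S phase starts when cyclin D with CDK4 or CDK6, and then cyclin E with CDK2, phosphorylate the retinoblastoma protein and release E2F transcription factors. E2F factors switch on many genes of replication. Origins are licensed in G1 when ORC, CDC6 and CDT1 load the MCM2 to MCM7 helicase, which CDC45 and the GINS complex then activate. DNA polymerases, the sliding clamp PCNA, its RFC loader and lagging strand enzymes copy the template, and the CAF-1 complex (CHAF1A, CHAF1B) places histones behind the fork. MYC proteins are known to drive growth and cell cycle entry, and amplified MYCN marks aggressive neuroblastoma.

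Promoters of 37 of the 45 members were matched in RefSeq (GRCh38.p14), as windows of 300 bases with 250 before and 50 after the start site. The entries not matched were MCM4, MCM5, GINS4, POLD3, RPA2, CCND1, CCNE2 and CDK2. The sequences below are the 250 bases before the start site, 5′ to 3′ on the gene's strand, and were chosen to show the E2F-type and E-box letters and their absence in genes that the results turn on. Capitals mark TTTGGCGC or TTTCCCGC (E2F-type letters, on either strand) and CACGTG (the E-box that MYC proteins can bind).
E2F1, an activator E2F, chr20:33686386-33686635, minus strand: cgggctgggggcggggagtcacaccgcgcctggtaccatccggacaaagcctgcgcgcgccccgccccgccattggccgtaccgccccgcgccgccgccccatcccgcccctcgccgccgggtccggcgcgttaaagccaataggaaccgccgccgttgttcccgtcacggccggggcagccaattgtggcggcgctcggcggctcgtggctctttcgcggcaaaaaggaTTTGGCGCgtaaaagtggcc
CDT1, a licensing factor, chr16:88803539-88803788, plus strand: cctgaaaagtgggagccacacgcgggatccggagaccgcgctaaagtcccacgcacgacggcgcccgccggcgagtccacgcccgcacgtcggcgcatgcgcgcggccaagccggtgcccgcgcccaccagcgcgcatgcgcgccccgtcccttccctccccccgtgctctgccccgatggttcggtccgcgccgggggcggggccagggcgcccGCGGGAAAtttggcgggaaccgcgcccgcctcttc
MCM6, a helicase subunit, chr2:135876444-135876693, minus strand: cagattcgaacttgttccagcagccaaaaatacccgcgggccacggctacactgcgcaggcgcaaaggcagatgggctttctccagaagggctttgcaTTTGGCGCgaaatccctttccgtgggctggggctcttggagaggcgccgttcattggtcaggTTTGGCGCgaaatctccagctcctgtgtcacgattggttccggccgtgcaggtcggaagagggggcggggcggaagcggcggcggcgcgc
CDK4, the kinase partner of cyclin D, chr12:57752311-57752560, minus strand: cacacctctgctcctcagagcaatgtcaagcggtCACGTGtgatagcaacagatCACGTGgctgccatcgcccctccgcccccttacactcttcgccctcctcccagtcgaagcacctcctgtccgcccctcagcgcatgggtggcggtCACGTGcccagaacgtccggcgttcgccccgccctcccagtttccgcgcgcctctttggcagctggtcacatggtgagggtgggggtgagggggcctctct
CHAF1B, a histone chaperone subunit, chr21:36385142-36385391, plus strand: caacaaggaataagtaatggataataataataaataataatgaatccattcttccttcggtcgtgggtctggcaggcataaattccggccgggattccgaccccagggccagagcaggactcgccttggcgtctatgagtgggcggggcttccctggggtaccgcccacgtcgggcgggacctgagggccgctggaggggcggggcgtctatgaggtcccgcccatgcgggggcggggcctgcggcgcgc
CCNE1, cyclin E1, chr19:29811741-29811990, plus strand: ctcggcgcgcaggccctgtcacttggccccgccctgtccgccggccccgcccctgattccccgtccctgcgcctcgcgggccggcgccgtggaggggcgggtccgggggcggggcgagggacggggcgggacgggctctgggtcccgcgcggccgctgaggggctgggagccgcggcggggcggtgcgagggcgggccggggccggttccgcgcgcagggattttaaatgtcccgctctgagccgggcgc
MCM6 held 2 E2F-type matches and CDK4 held 3 E-boxes, while CHAF1B and CCNE1 held neither set of letters.

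Over the 300-base windows, 19 of 37 members (51.4%) held an E2F-type match, against 2.27% of 35116 promoters. Each member entered once, whereas this background held every window of that length and was not limited to expressed genes. TTTCCCGC was found in 10 members (27% against 1.63%) and TTTGGCGC in 9 (24.3% against 0.652%). The E-box, which reads the same on both strands, was found in 7 members (18.9% against 7.26%), and CCAAT on either strand in 21 (56.8% against 34.6%). MCM7 held both an E2F-type match and an E-box. A match is a description of letters, not a binding site.

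**Figure D1:**
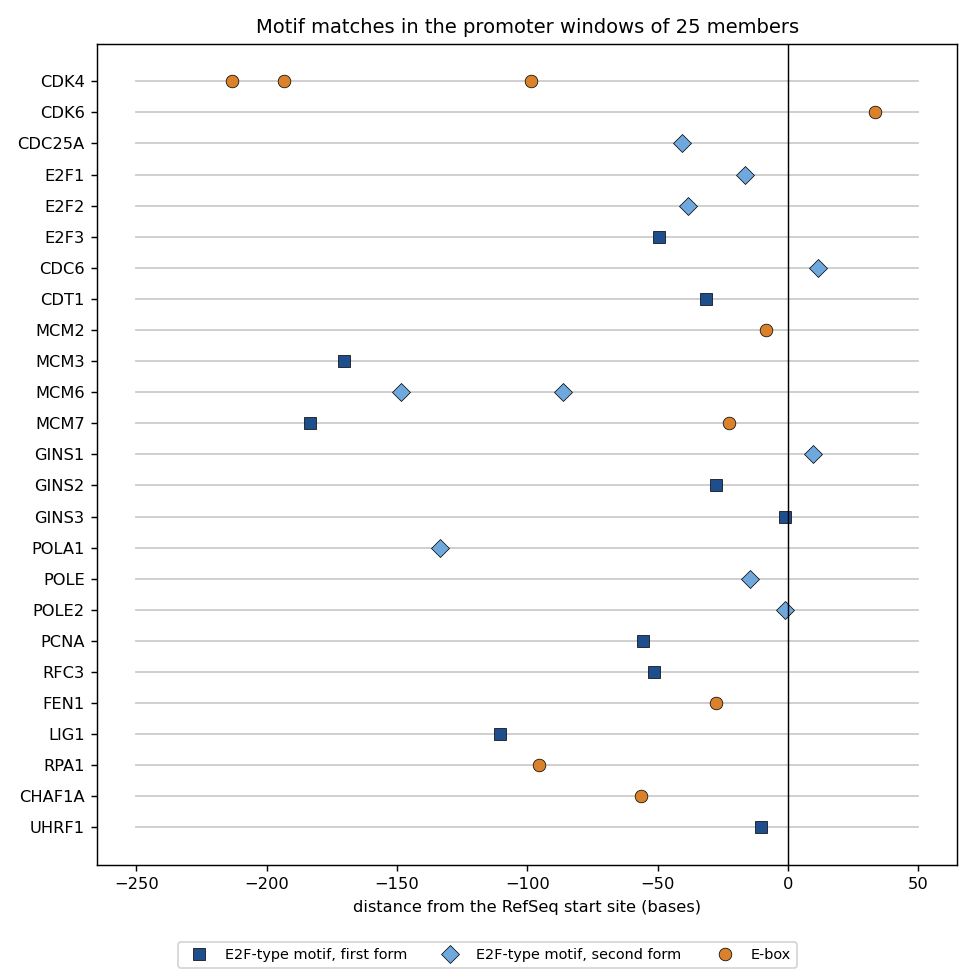
Distance in bases from the RefSeq start site (x axis) of E2F-type matches (squares TTTCCCGC, diamonds TTTGGCGC) and E-boxes (circles) in 25 members, 1 row each. CDK4 has 3 E-boxes and MCM6 has 2 E2F-type matches, and the E2F-type matches of GINS3 and POLE2 lie across the start site.

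Total counts were 16394148 to 26193478 in IMR-32 and 11638859 to 15353505 in SHEP. EXOSC10 was measured at 74.6, 64.0 and 67.1 CPM (a count relative to the TMM-adjusted library size) in IMR-32 controls and at 49.0, 46.7 and 46.1 CPM in shEXOSC10 libraries, a change of -0.54 ± 0.08 on the log2 scale (SE, n = 3 a group, edgeR adjusted p = 2.27e-08). MYCN fell from 1089.7, 1087 and 1115 CPM to 596, 595 and 605 CPM (log2 fold change -0.87, SE 0.04, adjusted p = 7.53e-30). In SHEP, MYCN had 4 counts in no MYCN replicate 1, 2 in MYCN WT replicate 1 and 10 in MYCN 3A replicate 1. The other 6 libraries had 0, which allows up to 0.212 to 0.263 CPM (3 counts, counting error only) if counts are independent. Both ends of a read pair appear to be counted, so the limit would be higher. The gene counts therefore do not show the induced MYCN, and the SHEP groups below are named by their labels only. EXOSC10 in SHEP was measured at 90.1, 83.7 and 69.5 CPM in no MYCN, 106, 91.5 and 82.6 CPM in MYCN WT and 62.6, 57.1 and 64.9 CPM in MYCN 3A libraries. It was lower in MYCN 3A than in no MYCN libraries (log2 fold change -0.40, SE 0.11, adjusted p = 0.00954), a call lost without no MYCN replicate 1 or MYCN 3A replicate 2 (adjusted p up to 0.0787). EXOSC10 was higher in MYCN WT than in MYCN 3A (log2 fold change 0.60, edgeR adjusted p = 0.00025), a call kept under every alternative run. Between MYCN WT and no MYCN it was not called (0.20). In TPM, a level that scales counts by exon length and was computed here, the 10 mesenchymal markers summed to 3440 to 3649 TPM in no MYCN SHEP libraries and to 443 to 471 TPM in IMR-32 controls, and the 10 adrenergic markers to 95.4 to 103 TPM and 3637 to 3842 TPM. Leukocyte, epithelial, endothelial and Schwann cell marker sums reached at most 21.9, 2.14, 0.536 and 21.0 TPM in any library.

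The 44 members were expressed in every library, with no count under 106. Their group means in IMR-32 controls ranged from 4.33 TPM for CCNE2 to 461 TPM for CCND1, cyclin D1, with a median of 37.9 TPM. In no MYCN SHEP libraries they ranged from 15.7 TPM for POLE, the catalytic subunit of polymerase epsilon, to 839 TPM for PCNA, with a median of 61.2 TPM. The order of the helicase subunits was MCM5 lowest and MCM7 highest in all 5 groups. In IMR-32 controls MCM5 was at 34.6 ± 2.58 TPM and MCM7 at 254 ± 7.40 TPM (SD, n = 3), a ratio of 7.34, and in no MYCN SHEP libraries at 83.2 ± 4.15 and 302 ± 2.12 TPM, a ratio of 3.63. The lines were counted in separate tables, so their levels are set side by side without a test. Of the 44 members, 33 had a higher mean TPM in no MYCN SHEP libraries than in IMR-32 controls, with a median ratio of 1.60. The same share and ratio over all genes were not computed, so whether these values are particular to the members was not tested. The ratio was 6.47 for GINS2 and 5.27 for PCNA, and 0.328 for CDK6 and 0.372 for POLE.

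**Figure D2:**
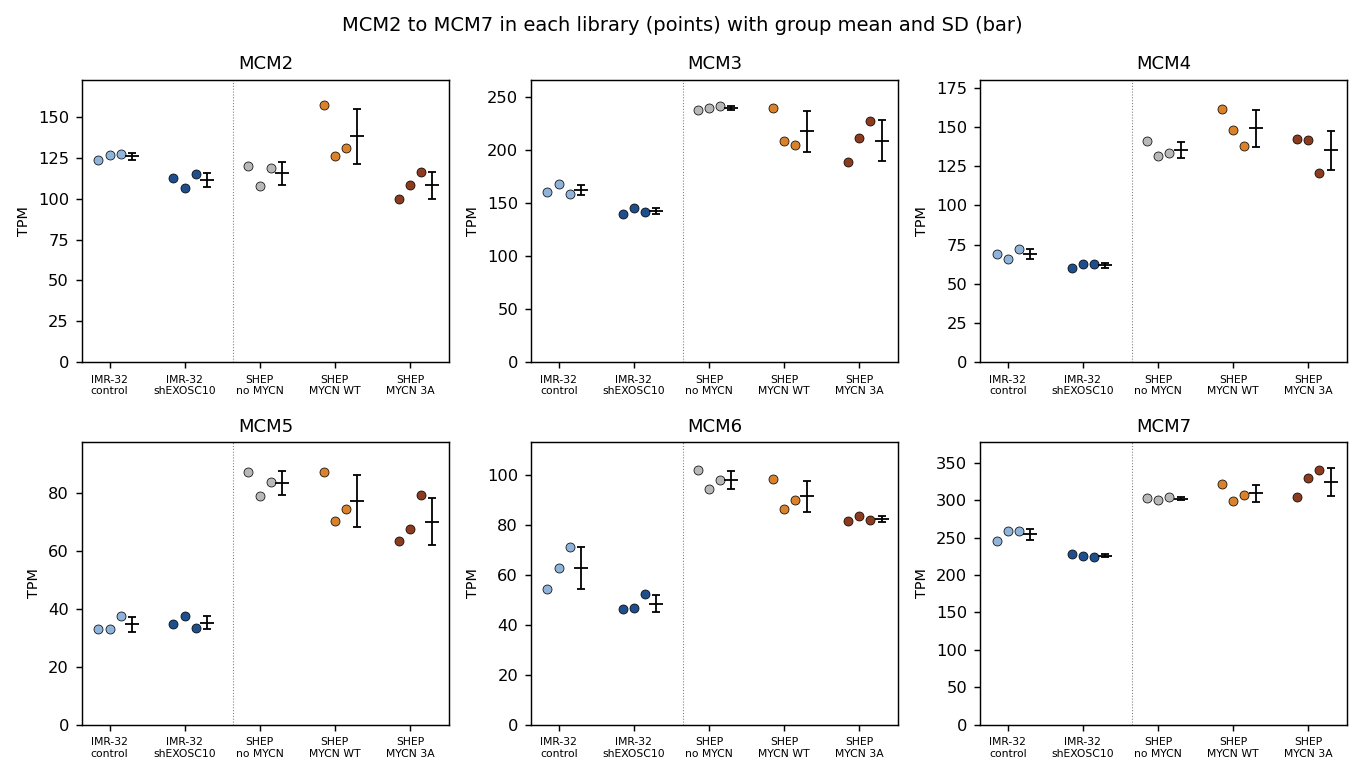
TPM (y axis) of the 6 MCM helicase subunits in each library (points) of 5 groups (x axis), with the group mean and SD as a bar. MCM2, MCM3, MCM4, MCM6 and MCM7 are lower in all shEXOSC10 libraries than in all IMR-32 controls, and MCM5 overlaps.

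EXOSC10 depletion in IMR-32 was accompanied by lower levels of cell cycle entry and licensing genes and by higher cyclin E1. Of 44 members, 15 fell and 2 rose (34.1% lower, against 13.7% of all tested genes, and 18.3% of genes at least as high as the lowest member). The background for higher genes was 13.5% of all tested genes and 15.9% of those at least as high as the lowest member. The median log2 fold change of the members was -0.11, against 0.00 for all tested genes, and 22 of 44 members had groups that did not overlap (background 38.4%). In bulk RNA, fewer cycling cells and less RNA per cell cannot be told apart.

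CCND1, which binds CDK4 and CDK6 and lies at chr11:69455855-69469242 (hg19), changed most. It was measured at 698, 682 and 687 CPM in controls and at 334, 313 and 326 CPM in shEXOSC10 libraries, so that every depleted library lay under every control. The log2 fold change, depleted over control, was -1.09 (SE 0.04, edgeR adjusted p = 2.89e-33). The kinase partners CDK6 (log2 fold change -0.38) and CDK4 (-0.16) also fell. CCNE1, cyclin E1 (hg19 chr19:30302805-30315215), went the other way, from 16.9, 19.5 and 21.8 CPM to 34.0, 34.6 and 32.8 CPM. All depleted libraries exceeded all controls, with a change of 0.80 ± 0.10 on the log2 scale (SE, n = 3 a group, edgeR adjusted p = 2e-09). CCNE2, CDK2 and the phosphatase CDC25A, which activates CDK2, did not pass the test, with log2 fold changes of 0.15, -0.15 and -0.05. Of the activator E2F genes, E2F2 (-0.35) and E2F1 (-0.25) fell, and E2F3 had a log2 fold change of -0.03.

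Of the licensing genes, 7 of 10 fell and 0 rose (0 also at an unadjusted p under 0.05 and by DESeq2). CDT1 (hg19 chr16:88869621-88875666), a loading factor, went from 20.4, 20.6 and 20.7 CPM to 13.9, 14.6 and 13.7 CPM. The groups did not overlap, with a change of -0.55 ± 0.12 on the log2 scale (SE, n = 3 a group, edgeR adjusted p = 0.000172). CDC6, which loads the helicase with CDT1, fell by 0.34, and of the helicase subunits MCM6 fell by 0.36, MCM3 by 0.19, MCM2 by 0.17, MCM7 by 0.17 and MCM4 by 0.16 on the log2 scale. MCM5 had a log2 fold change of 0.02 (95% interval -0.11 to 0.16), and ORC1 and ORC6 had 0.00 and 0.10. The summed level of MCM2 to MCM7 was 685 to 725 TPM in controls and 622 to 628 TPM in depleted libraries.

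Fewer of the later replication genes passed the test. In the group that activates the helicase, GINS3 (hg19 chr16:58328984-58440048) fell from 18.0, 16.2 and 16.4 CPM to 9.90, 16.0 and 11.9 CPM, with depleted replicate 2 close to the controls (log2 fold change -0.43, SE 0.14, adjusted p = 0.0119). CDC45, the other helicase activator, had a log2 fold change of 0.00. Among polymerases, POLA2, a subunit of the primase complex, fell by 0.34 on the log2 scale, and POLE rose from 223, 218 and 211 CPM to 254, 253 and 258 CPM (log2 fold change 0.23, SE 0.05, adjusted p = 0.000109). Of the 9 clamp, loader and lagging strand genes, 0 passed edgeR's test in either direction (2 lower at an unadjusted p under 0.05, 0 by DESeq2), and PCNA had a log2 fold change of -0.03. CHAF1B (hg19 chr21:37757676-37791313) fell from 23.2, 22.8 and 26.3 CPM to 17.2, 15.1 and 16.2 CPM (log2 fold change -0.57, SE 0.11, adjusted p = 4.16e-05), with no overlap, while its partner CHAF1A had a log2 fold change of -0.04.

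Among further genes of these pathways, 10 of 36 other replication factors fell and 2 rose, led by TOP1, the topoisomerase that relieves torsion (log2 fold change -0.40), and POLD2 (-0.34), with CHTF18 (0.17) and POLD4 (0.48) higher. RRM1, a ribonucleotide reductase subunit of nucleotide supply, fell (-0.30). Among 10 CDK inhibitors and pocket proteins, CDKN2C (0.57) and CDKN1A (0.34), both CDK inhibitors, rose and 3 fell, among them RB1 (-0.30) and CDKN1C (-0.32). Of 11 other E2F and cyclin genes tested, E2F5 (-0.41) fell and 0 rose (1 at an unadjusted p under 0.05, 0 by DESeq2). In a mitosis list, 9 of 36 genes fell and 1 rose, with CCNB1 (-0.27) and CENPF (-0.16) lower and CDC25B (0.49) higher, so lower calls were not limited to replication genes. Adrenergic marker genes moved with this comparison: 8 of 10 fell and 1 rose, and their sum was 3637 to 3842 TPM in controls and 2098 to 2189.8 TPM in depleted libraries. Of 7 mesenchymal markers tested, 3 rose and 2 fell. Schwann cell markers summed to 16.7 to 21.0 TPM in controls and 9.49 to 13.9 TPM in depleted libraries. The share of counts from mitochondrially encoded genes was 6.70 to 7.49% in controls and 7.90 to 8.22% in depleted libraries. The part of these values in the result was not tested. Leaving out single libraries ended the calls of CDC6, CDK4, GINS3 and MCM4 without depleted replicate 1 (adjusted p 0.0545 to 0.231), CDK4, GINS3 and MCM4 without depleted replicate 3 (0.0554 to 0.0682), E2F2 and MCM2 without depleted replicate 2 (0.0536 to 0.0676), GINS3 and MCM4 without control replicate 1 (0.0535 to 0.0545), CDK4 without control replicate 2 (0.302) and E2F2 and MCM4 without control replicate 3 (0.0740 to 0.0855). The calls of CDK4 and MCM4 were also lost with library totals in place of TMM scaling (adjusted p 0.0954 and 0.0657) and with no filter on low counts (0.0682 and 0.0521), and CDK4 was not called by DESeq2 (0.0666). CDK4 shares 43.2%, CCNE2 37.1% and CCND1 10.3% of their exon bases with genes on the other strand. Genes nested in an opposite-strand gene had a median count density of 0.408% of that gene in IMR-32 and 0.0218% in SHEP, so both tables follow strand.

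**Figure D3:**
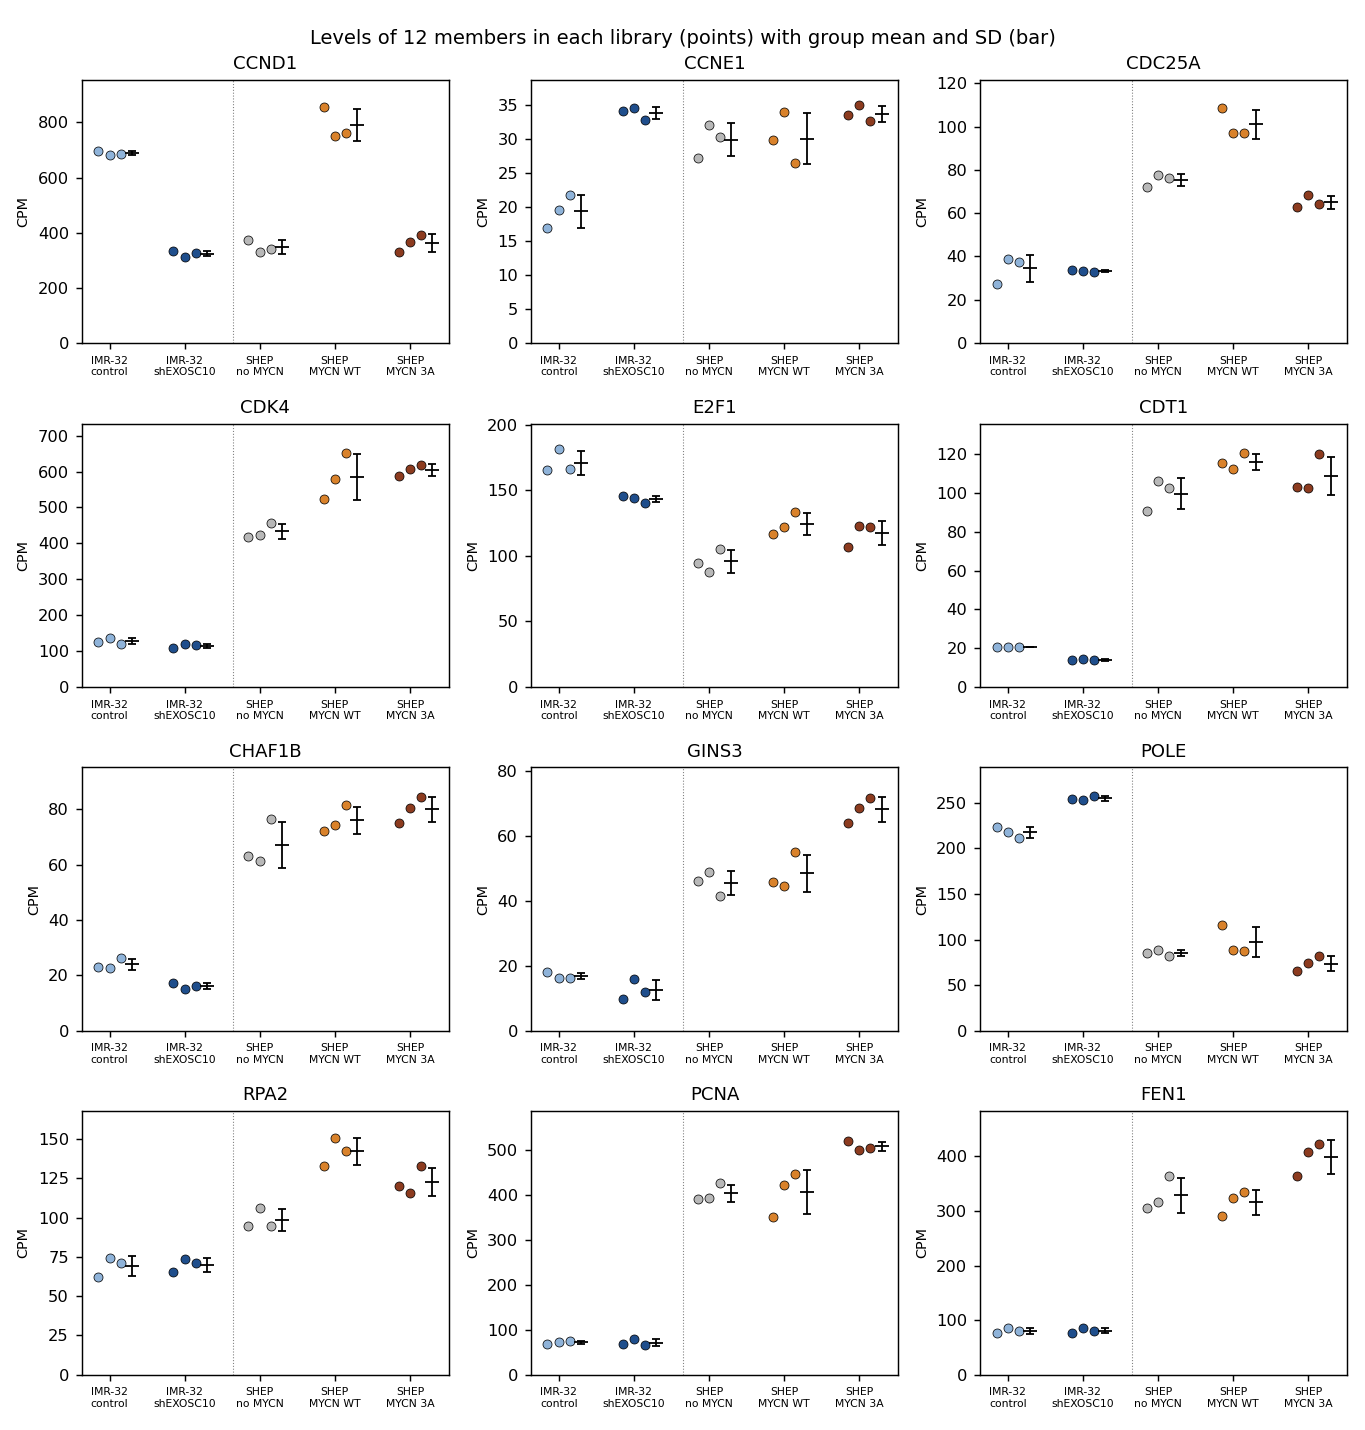
CPM (y axis, from 0) of 12 members in each library (points) of the 5 groups (x axis), with the group mean and SD as a bar. CCND1 lies at 682 to 698 CPM in IMR-32 controls and at 750 to 857 CPM in MYCN WT libraries, while the other groups lie between 313 and 392 CPM.

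In SHEP, the libraries labelled MYCN WT had higher cyclin D1 (CCND1), RPA2, POLD3, CDK4 and CDC25A than those labelled no MYCN. Of 44 members, 11 rose and 0 fell (1 fell at an unadjusted p under 0.05, 0 by DESeq2). The share higher was 25.0%, against 10.9% of all tested genes and 17.4% of genes at least as high as the lowest member, and 11.3% of all tested genes and 11% of those at that level were lower. The median log2 fold change was 0.13, against 0.00 for all tested genes, and 22 of 44 members had groups that did not overlap (background 37.5%). CCND1 was measured at 375, 329 and 340 CPM in no MYCN and at 857, 750 and 761 CPM in MYCN WT libraries, all of the latter above all of the former (log2 fold change 1.18, SE 0.09, adjusted p = 1.86e-09). CDK4 went from 418, 424 and 457 CPM to 524, 578 and 652 CPM (log2 fold change 0.43, SE 0.09, adjusted p = 0.000732). Its promoter letters with 3 E-boxes are shown above, and their part in the rise was not tested. Of 8 members higher with MYCN WT that had a matched promoter, 2 held an E-box (25%, against 18.9% of members). The E-box was found in 4 of 13 (30.8%) of those higher with MYCN 3A, and in 4 of 13 (30.8%) of those lower on depletion. CDC25A rose by 0.43 on the log2 scale, and E2F1 (0.37) and E2F2 (0.32) rose among the E2F activators.

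Replication genes that rose with MYCN WT came from several steps. RPA2 (hg19 chr1:28218035-28241257), a subunit of the complex that coats single-stranded DNA, went from 94.8, 106 and 94.5 CPM to 133, 151 and 143 CPM, without overlap (log2 fold change 0.53, SE 0.09, adjusted p = 0.000115). POLD3, a polymerase delta subunit (hg19 chr11:74204896-74380162), went from 45.2, 42.8 and 41.7 CPM to 63.7, 60.9 and 58.4 CPM (log2 fold change 0.50, SE 0.10, adjusted p = 0.000614). ORC6 (0.34), GINS2 (0.33), MCM2 (0.32) and POLA2 (0.29) also rose, whereas MCM3, MCM5 and MCM6 had log2 fold changes of -0.08, -0.05 and -0.04 and did not pass the test. Of 36 other replication factors, 5 rose and 4 fell, with POLE3 (0.57) and DNA2 (0.61) higher and POLD4 (-1.14) and TOP2A (-0.32) lower. Of 8 nucleotide supply genes, 3 rose, led by DCTPP1 (0.63) and TYMS (0.41), and 0 fell (0 at an unadjusted p under 0.05 and by DESeq2). Of 7 CDK inhibitors and pocket proteins tested, CDKN1A (-0.39) fell and 0 rose (0 at an unadjusted p under 0.05 and by DESeq2). E2F4 (0.30) was the 1 of 11 other E2F and cyclin genes that rose, and 0 fell (0 at an unadjusted p under 0.05 and by DESeq2).

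In the mitosis list, 1 of 36 genes rose, BUB3 (0.31), and 7 fell, among them CDC25B (-0.46) and AURKA (-0.41). Of 10 mesenchymal markers, 3 rose and 5 fell, with a median log2 fold change of -0.27. Their sum was 3440 to 3649 TPM without MYCN and 3619 to 3846 TPM in MYCN WT. Most of that sum was VIM, with a mean of 2556 TPM without MYCN and 3136 TPM in MYCN WT. Of 4 adrenergic markers tested, 1 rose, GATA2 (0.28), and their sum over 10 markers was 95.4 to 103 TPM without MYCN and 108 to 118 TPM in MYCN WT. Among the MYCN WT libraries, replicate 1 differed most from the other two, with a chi-square per degree of freedom of 10.2 and 19.4 against 5.54 between replicates 2 and 3. Their part in the result was not tested. Scaling by library totals left the split of all calls at 35.1% higher in place of 49.3% and ended the calls of E2F2 and POLA2, and E2F2 was not called without a filter on low counts either. Without no MYCN replicate 1 the count of higher members was 7, and the calls of E2F2, GINS2, ORC6 and POLA2 were lost (adjusted p 0.0640 to 0.0989). Calls were also lost without no MYCN replicate 2 (E2F2, MCM2, POLA2, adjusted p 0.0615 to 0.162), no MYCN replicate 3 (E2F2, POLA2, 0.0854 to 0.123), MYCN WT replicate 1 (E2F2, 0.0555), MYCN WT replicate 2 (E2F2, POLA2, 0.0697 to 0.0768) and MYCN WT replicate 3 (E2F2, GINS2, POLA2, 0.0578 to 0.114).

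In the libraries labelled MYCN 3A, GINS3, CDK4, POLE2 and PRIM1 were the members most raised relative to no MYCN, and cyclin D1 did not pass the test. Of 44 members, 14 rose and 1 fell (31.8% higher, against 12.7% of all tested genes and 23.8% of genes at least as high as the lowest member, with 12.8% and 16% lower). The median log2 fold change was 0.10, against -0.04 for all tested genes, and 24 of 44 members had groups that did not overlap (background 41.3%). With library totals in place of TMM, 5 members rose and 5 fell, the member median was -0.0041, and 29.6% in place of 49.7% of all called genes were higher. That scaling moved the median of all genes by -0.10, and the member median less that of all genes stayed at 0.13. Single genes called here are thus relative to the TMM scale. The no MYCN libraries are shared with the comparison above.

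CCND1 was measured at 375, 329 and 340 CPM without MYCN and at 328, 365 and 392 CPM in MYCN 3A libraries, which overlapped (log2 fold change 0.06, 95% interval -0.11 to 0.23). CDK4 reached 587, 608 and 619 CPM, above every no MYCN library (log2 fold change 0.48, SE 0.09, adjusted p = 0.000392). CCNE2, cyclin E2, went from 40.6, 36.9 and 33.3 CPM to 31.5, 25.2 and 28.5 CPM (log2 fold change -0.38, SE 0.13, adjusted p = 0.0313). E2F1 rose by 0.29 on the log2 scale. Helicase activation held 3 of 6 higher genes. GINS3 went from 46.2, 49.0 and 41.5 CPM to 64.1, 68.7 and 71.7 CPM, without overlap (log2 fold change 0.58, SE 0.11, adjusted p = 0.000499). CDC45 (0.33) and GINS2 (0.26) also rose, as did the licensing genes MCM7 (0.27) and ORC6 (0.27).

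POLE2, the accessory subunit of polymerase epsilon (hg19 chr14:50110273-50155140), went from 21.1, 27.0 and 24.8 CPM to 36.9, 33.1 and 27.5 CPM (log2 fold change 0.42, SE 0.13, adjusted p = 0.0224). PRIM1, the primase catalytic subunit, went from 47.6, 47.4 and 43.0 CPM to 70.0, 58.3 and 54.2 CPM (log2 fold change 0.40, SE 0.11, adjusted p = 0.00859). Both groups of values were apart, with MYCN 3A replicate 3 lowest of the MYCN 3A libraries for each gene. POLE2 lost its call under 5 of 13 alternatives (edgeR adjusted p up to 0.283) and PRIM1 under 1. Of the 9 clamp, loader and lagging strand genes, 4 rose: RFC4 (0.34), PCNA (0.33), RPA2 (0.32) and FEN1 (0.28), the flap endonuclease of Okazaki fragments, whose groups overlapped. The summed level of the 9 genes was 1769.8 to 1853 TPM without MYCN, 1738 to 1833 TPM in MYCN WT and 1937 to 1969 TPM in MYCN 3A. CHAF1A rose by 0.23. Of 36 other replication factors, 6 rose and 3 fell, with POLE3 (0.58) and RPA3 (0.52) higher and TIMELESS (-0.40) and POLD4 (-0.63) lower. Of nucleotide supply genes, DCTPP1 (0.85) and DUT (0.43) rose and RRM2B (-0.46) fell, of 8. Pocket proteins RB1 (-0.61) and RBL2 (-0.74) were among 5 of 7 CDK inhibitors and pocket proteins that fell, and 0 rose (0 at an unadjusted p under 0.05 and by DESeq2). Of 11 other E2F and cyclin genes, E2F5 (0.68) and CCNH (0.31) rose and E2F8 (-0.76) and E2F7 (-0.80) fell.

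In the mitosis list, 19 of 36 genes fell, ANLN (-0.71) and KIF20A (-0.57) among them, and AURKB (0.36) and PTTG1 (0.28) rose. Of 10 mesenchymal markers 6 fell and 0 rose (0 at an unadjusted p under 0.05 and by DESeq2), and their sum was 2927 to 3006 TPM in MYCN 3A. Their part in the result was not tested. GINS2, CHAF1A and ORC6 were not called without a filter on low counts. Many calls rested on few libraries. Of the 15 calls, 10 were lost without no MYCN replicate 1 (adjusted p 0.0624 to 0.233), which left 5 members higher, 8 without no MYCN replicate 2 (0.0621 to 0.143), 8 without MYCN 3A replicate 2 (0.0620 to 0.182), 8 without MYCN 3A replicate 3 (0.0593 to 0.156), 4 without MYCN 3A replicate 1 (0.0585 to 0.110) and 3 without no MYCN replicate 3 (0.050 to 0.0707). CDK4, GINS3, PCNA and RFC4 kept their call under every alternative run.

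Between the libraries labelled MYCN WT and MYCN 3A, both with doxycycline, CCND1 and CDC25A were the members highest in WT relative to 3A. GINS3, POLE2 and GINS1 were those lowest in WT relative to 3A. Of 44 members, 11 were higher and 6 lower with WT (25.0% and 13.6%), against 15.8% and 14.5% of all tested genes and 21% and 20.5% of genes at least as high as the lowest member. These shares were near the background, so no difference is read from the list as a whole. The median log2 fold change was 0.06, against 0.00 for all tested genes, and 21 of 44 members had groups that did not overlap (background 40.4%). The values of MYCN WT and MYCN 3A libraries also enter the comparisons with no MYCN above.

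CCND1 was higher with WT (857, 750 and 761 CPM against 328, 365 and 392 CPM, log2 fold change 1.12, SE 0.09, adjusted p = 6.19e-09). CDC25A was at 109, 97.2 and 97.2 CPM with WT and 62.7, 68.4 and 64.0 CPM with 3A (log2 fold change 0.63, SE 0.09, adjusted p = 1.84e-05). POLE was at 116, 89.1 and 87 CPM with WT and 65.5, 74.0 and 81.7 CPM with 3A (log2 fold change 0.40, SE 0.11, adjusted p = 0.00728). MYCN WT replicate 1 was the highest library for POLE, and without it the log2 fold change was 0.26 and the adjusted p 0.0654. CCNE2 was at 39.5, 40.2 and 32.1 CPM against 31.5, 25.2 and 28.5 CPM (log2 fold change 0.39, SE 0.13, adjusted p = 0.0225). CDK2 (0.33), E2F2 (0.38), ORC1 (0.33), MCM2 (0.25), POLA1 (0.34), POLD3 (0.32) and RFC5 (0.27), which belong to kinase, E2F, licensing, polymerase and loader groups, were also higher with WT. ORC1 lost its call under 9 of 13 alternatives, DESeq2 among them (adjusted p 0.0514), and had a log2 fold change of 0.19 without MYCN WT replicate 1 and 0.10 without replicate 1 of every SHEP group. RFC5 lost its call under 7 alternatives, MCM2 under 5, and CCNE2 and POLA1 under 4 each.

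GINS3 was lower with WT, at 45.7, 44.7 and 55.1 CPM against 64.1, 68.7 and 71.7 CPM (log2 fold change -0.49, SE 0.11, adjusted p = 0.00141). GINS1 was at 57.1, 68.6 and 66.4 CPM against 89.7, 87.7 and 76.6 CPM (log2 fold change -0.40, SE 0.10, adjusted p = 0.00318). Its mean was 44.6 TPM with WT, 55.4 TPM with 3A and 56.0 TPM in no MYCN libraries, so it was not raised with 3A. In the main fit GINS1 was called in neither comparison with no MYCN, and under 3 alternatives it was called lower in WT. FEN1 was at 290, 323 and 334 CPM against 364, 408 and 424 CPM (log2 fold change -0.34, SE 0.09, adjusted p = 0.00628). No library with WT reached the lowest 3A library for these genes. POLE2 was at 24.1, 24.1 and 25.5 CPM against 36.9, 33.1 and 27.5 CPM (log2 fold change -0.40, SE 0.13, adjusted p = 0.024), also without overlap. POLE2 lost its call under 5 of 13 alternatives (adjusted p up to 0.152). PCNA (-0.32) and CDC45 (-0.30) were lower too. Of 6 helicase activation genes 3 were lower and 0 higher (1 at an unadjusted p under 0.05, 0 by DESeq2), and of 7 cyclin, kinase and CDC25A genes 4 were higher and 0 lower (0 at an unadjusted p under 0.05 and by DESeq2).

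Of 36 other replication factors, 8 were higher with WT and 7 lower, with DNA2 (0.69) and ASF1B (0.36) higher and RECQL4 (-0.52) and RPA3 (-0.45) lower. Of the nucleotide supply genes, TYMS (0.28) and RRM2 (0.24) were higher and 0 of 8 lower (2 at an unadjusted p under 0.05, 0 by DESeq2). RBL1 (0.41) and RB1 (0.35) were higher and 0 of 7 pocket and inhibitor genes lower (0 at an unadjusted p under 0.05 and by DESeq2). E2F7 (1.14) and E2F8 (0.97), atypical repressor E2Fs, were higher and E2F5 (-0.39) lower. The mitosis list had 11 of 36 higher and 6 lower, with PRC1 (0.45) and ECT2 (0.48) higher and AURKB (-0.43) and BIRC5 (-0.35) lower, and mesenchymal markers 5 higher and 3 lower of 10. The part of these markers in the result was not tested. Leaving out 1 library ended 8 of the 17 calls without MYCN 3A replicate 2 (adjusted p 0.0515 to 0.116), 7 without MYCN WT replicate 1 (0.0558 to 0.303), 7 without MYCN WT replicate 2 (0.0520 to 0.105), 5 without MYCN 3A replicate 3 (0.0545 to 0.156), 4 without MYCN 3A replicate 1 (0.0931 to 0.183) and 1, RFC5, without MYCN WT replicate 3 (0.0866). CCND1, CDC25A, FEN1, GINS1 and GINS3 kept their call under every alternative run.

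**Figure D4:**
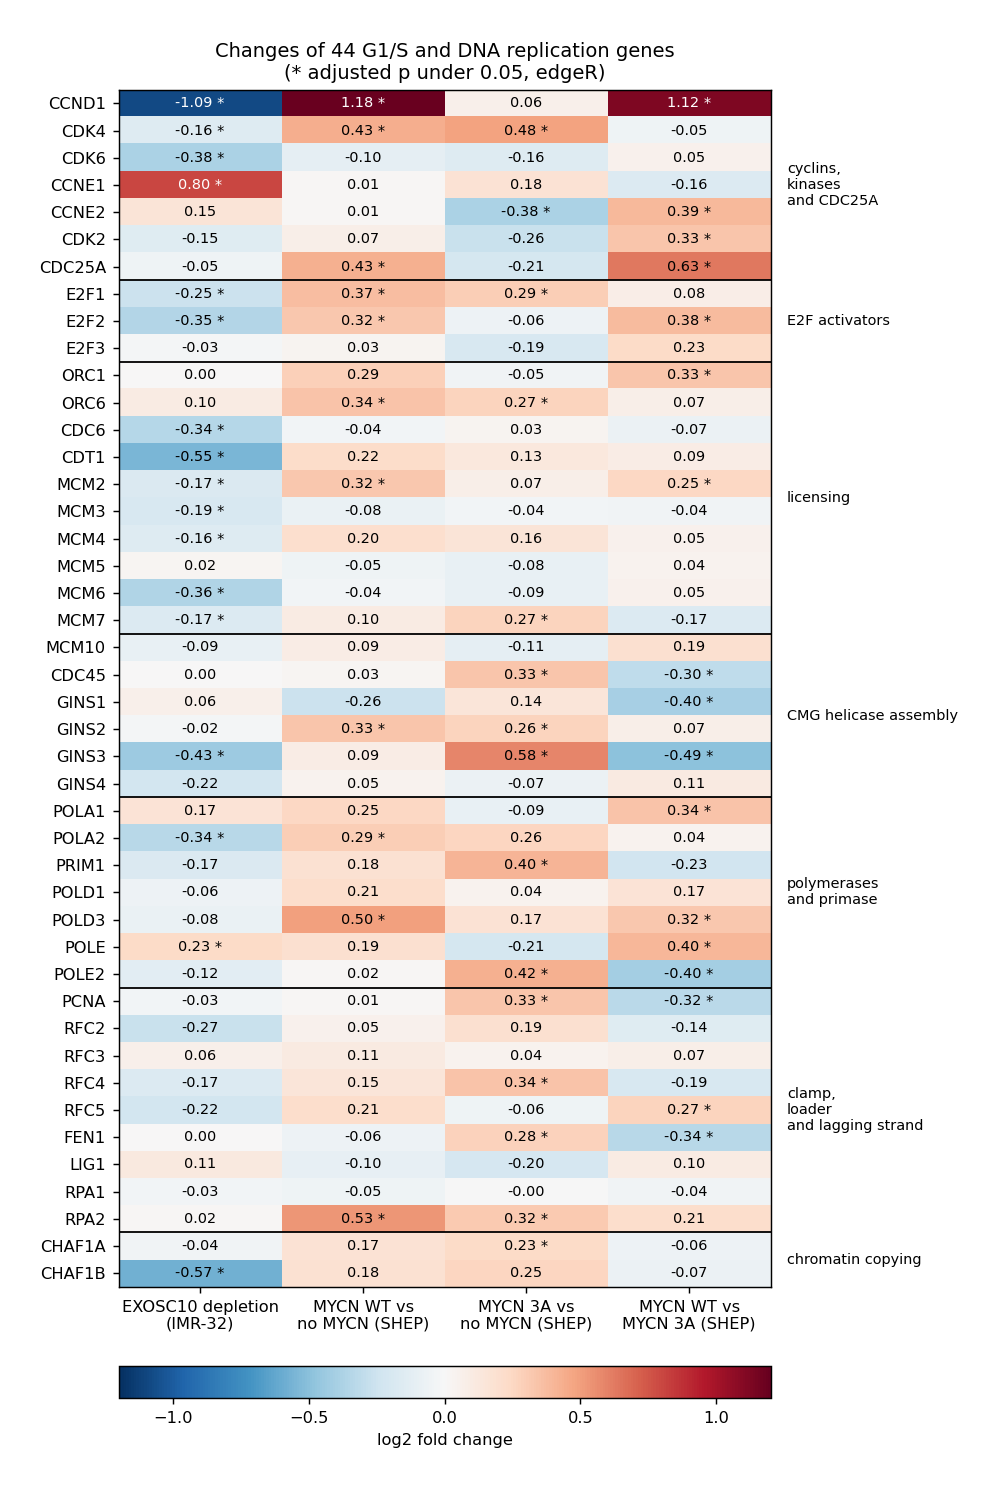
Log2 fold changes (colour and printed value) of the 44 members (rows, by role) in the 4 comparisons (columns), where an asterisk marks an adjusted p under 0.05 in edgeR. CCND1 is -1.09 on EXOSC10 depletion, 1.18 with MYCN WT and 0.06 with MYCN 3A, and 0 of 9 clamp, loader and lagging strand genes are marked in the depletion column.

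The depletion comparison in IMR-32 shares no library with those in SHEP, so members called in both can be counted. Of the 15 members lower on EXOSC10 depletion, 6 were higher with MYCN WT (40% of the lower and 54.5% of the 11 higher): CCND1, CDK4, E2F1, E2F2, MCM2 and POLA2. Among them, CCND1 and E2F1 kept both calls under every alternative run. CDK4 lost the depletion call under 6 of 11 alternatives, and E2F2 and POLA2 lost the MYCN WT call under 8 and 6 of 13. E2F2 also lost the depletion call under 2, and MCM2 lost each call under 1. Over the 12952 genes tested in both lines, 353 had both calls, which was 17.5% of the 2014 lower and 24.3% of the 1454 higher genes. Members were also called more often in each comparison alone: 34.1% were lower on depletion and 25.0% higher with MYCN WT. Over the genes tested in both lines these shares were 15.5% and 11.2%. The overlap with MYCN WT is therefore not read as particular to the members. With MYCN 3A, 4 of the 15 were higher (26.7% of the lower and 28.6% of the 14 higher): CDK4, E2F1, GINS3 and MCM7. Over all genes, 511 had both of those calls, 25.4% of the lower and 28.6% of the higher, so the members' shares were near the background. CCNE1 and POLE, which rose on depletion, had log2 fold changes of 0.01 and 0.19 with MYCN WT and did not pass the test. Across the 44 members, the changes on depletion and with MYCN WT had Pearson's r = -0.42 and Spearman's rho = -0.14, and without CCND1 r = -0.09 over 43 members. The relation over members therefore rested on CCND1. The points share the libraries of each comparison and are not independent. In none of the 4 comparisons did 9 members pass the test in the main fit: E2F3, GINS4, LIG1, MCM10, MCM5, POLD1, RFC2, RFC3 and RPA1. Of these, E2F3, GINS4, LIG1 and POLD1 passed in a comparison under 1 alternative each, and MCM10 under 2. The log2 fold changes of RPA1, a subunit of the single-strand binding complex, were -0.03 on depletion, -0.05 with MYCN WT and 0.00 with MYCN 3A, and those of RFC2, a clamp loader subunit, were -0.27, 0.05 and 0.19.

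**Figure D5:**
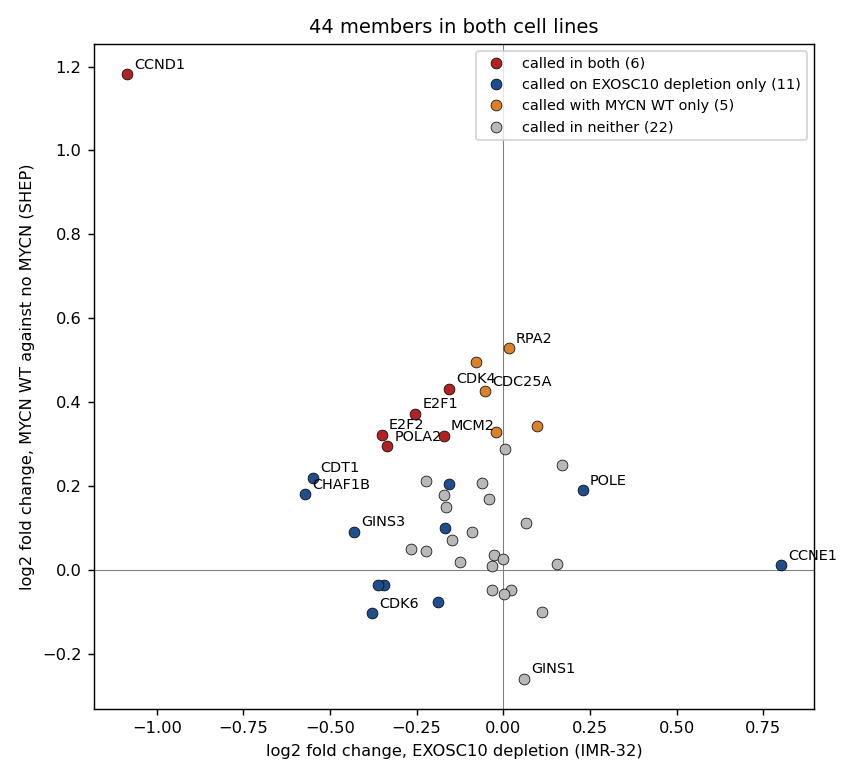
Log2 fold change on EXOSC10 depletion in IMR-32 (x axis) against that of MYCN WT against no MYCN in SHEP (y axis), 1 point for each of the 44 members, coloured by the comparisons in which it passed the test. CCND1 lies far from the others at -1.09 and 1.18, and 6 members passed in both comparisons.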

How the data were processed

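Polyadenylated RNA of 15 libraries was analysed, and 74 other samples of the series were not analysed here. The deposited values were raw read counts per gene. Reads were aligned with STAR 2.7.10a and counted with featureCounts 2.0.3, per the submitters' processing notes. The SHEP table was counted on hg19 with Ensembl release 87 gene models, with strand setting 2 and a minimum overlap of 10 bases, per the file headers, and the settings of the IMR-32 table are not given in the sources used here. Between 65.5 and 77.1% of counts from 1 to 10 were even, so both ends of a read pair appear to be counted. Columns of the IMR-32 table are named by solvent or doxycycline and replicate number only, and were joined to the polyadenylated RNA samples by those names and the table's assay.

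IMR-32 (17103 genes tested) and SHEP (14923 genes) were fitted separately with edgeR 4.0.16 (R 4.3.3): filterByExpr, TMM scaling and the robust quasi-likelihood test, with Benjamini-Hochberg adjustment over all tested genes and a threshold of 0.05. All 3 SHEP groups shared 1 fit. All 44 matched members passed the filter. Replicate variation (edgeR common BCV) came to 0.077 for IMR-32 and 0.108 for SHEP. TPM was computed from counts and exon length. The fit was tested on simulated data. Alternatives were DESeq2 1.42.0, other scaling, no filter, a replicate block, 2-group fits and leaving out each library. Values in every library are given for the 4 called members with the largest changes in each direction, called members are named by role, and the 2 genes with the smallest p in each direction are named from each wider list. The members and lists were chosen with earlier results of these data known. Results on nucleotide supply and on single Schwann cell markers in IMR-32 are not reported here.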

Additional observations from a re-analysis of the deposited data

How the results depend on the processing

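Depth limits low genes most: the lowest count of a member in any library was 106, and the members' calls rest on 3 libraries a group. With library totals, 1 member was lower in MYCN WT than in no MYCN and the median of the members was 0.0611. In MYCN 3A against no MYCN, 5 members rose and 5 fell with a median of -0.0041, and between the forms the median was 0.0914. In the fit of only the 2 groups compared, 1 member was lower in MYCN WT, and without a filter on low counts 2 were lower in MYCN 3A. Leaving out replicate 1 of every SHEP group, an alternative chosen after seeing the data, gave 2 members lower in MYCN 3A than in no MYCN and 5 higher in MYCN WT than in MYCN 3A. The cause was not tested.

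With a replicate block, 1 member was lower in MYCN WT and 2 in MYCN 3A than in no MYCN. The block ended no member's call and added others. Against no MYCN these were CDT1, GINS1, MCM4 and POLD1 in MYCN WT, and CDK2, CHAF1B and POLA2 in MYCN 3A. It also added MCM7, MCM10, RFC4 and RPA2 between the forms, and RFC5 on depletion. Residuals of libraries with the same number correlated at 0.03 to 0.04 in IMR-32 and -0.03 to 0.14 in SHEP. Those of libraries with different numbers correlated at -0.03 to -0.01 in IMR-32 and -0.13 to 0.06 in SHEP. The same-number range thus lay above the other in IMR-32 and overlapped it in SHEP. Whether the numbers pair libraries was not settled, and the main fit used no block.

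Leaving out 1 library gave 11 to 16 members lower and 2 to 2 higher on depletion, with a median of -0.1492 to -0.0594. For MYCN WT against no MYCN, 7 to 10 were higher and 0 to 0 lower (median 0.12 to 0.16), with 7 without no MYCN replicate 1. For MYCN 3A, 5 to 12 were higher and 0 to 1 lower (median 0.06 to 0.12), with 5 without no MYCN replicate 1, 7 without no MYCN replicate 2, MYCN 3A replicate 2 or MYCN 3A replicate 3, and 0 lower without no MYCN replicate 1, no MYCN replicate 2 or MYCN 3A replicate 3. Between the forms, 5 to 11 were higher and 4 to 6 lower (median 0.03 to 0.09), with 6 higher without MYCN WT replicate 1 or 2 and 5 without MYCN 3A replicate 2. Neither the members nor EXOSC10 and MYCN changed direction in their called comparisons under these alternatives. Directions of single genes from the wider lists and marker lists were not examined under them.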
